A study of Mus musculus with 18 samples.

Results

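The transcripts described here are 7 noncoding RNAs that carry small nucleolar RNAs (snoRNAs) in their introns, Gas5, Snhg1, Snhg3, Snhg5, Snhg6, Snhg8 and Snhg12. They were taken by symbol from a count table of 23420 genes, and all 7 had a row and passed the expression filter that left 11762 genes for testing. They had been grouped beforehand as hosts of Snord genes whose spliced RNA builds up when translation or RNA decay slows, and neither translation nor decay was measured in these samples. The levels below rose with CFZ for some of the genes and not for others. In WT cells treated with CFZ, Snhg8 had no detectable change and Snhg3 fell.

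RNA was sequenced from NIH-3T3 cells, an established line of immortalised mouse fibroblasts, as 18 libraries in 6 groups of 3 biological replicates. WT cells and Nrf1-KO cells, in which Nrf1 (gene Nfe2l1) had been knocked out with CRISPR/Cas9, were each given the vehicle DMSO or carfilzomib (CFZ) at 200 nM, the latter for 6 h or for 24 h. CFZ is an irreversible inhibitor of the proteasome, and Nrf1 is a transcription factor that raises proteasome gene expression when the proteasome is blocked. The Nrf1-KO cells were a single line made in earlier work, so the knockout cannot be told apart from other differences between this line and the WT line. The sources used here give no time for the DMSO cultures.

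A snoRNA host gene is transcribed as a precursor from which introns are removed. The snoRNAs are trimmed out of those introns and bind core proteins, box C/D snoRNAs (Snord) to guide ribose methylation of ribosomal RNA and box H/ACA snoRNAs (Snora) to guide its pseudouridylation. The joined exons of a noncoding host leave the nucleus with short reading frames, and for several hosts, Gas5 among them, they are known to be removed by nonsense-mediated decay once ribosomes read them, so that drugs which stop translation raise their level. Many such hosts also have a 5′ terminal oligopyrimidine (TOP) start, the start found in mRNAs of ribosomal proteins.

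In the GENCODE annotation of GRCm38 the 7 genes hold 27 snoRNA loci of 60 to 205 bases, and all 27 lie in introns of the transcript used as the representative. Gas5 (chr1:161034422-161038539, plus strand) holds 9 loci and Snhg1 (chr19:8723475-8726443, plus strand) holds 8, most of them annotated without a Snord or Snora symbol. Snhg5 (chr9:88521050-88522929, minus strand) holds Snord50a and Snord50b, and Snhg6 (chr1:9941959-9944118, minus strand) holds Snord87. The remaining hosts belong mostly to the H/ACA class. Snhg12 (chr4:132308623-132311024, plus strand) holds Snora16a, Snora44, Snora61 and Snord99, Snhg8 (chr3:123507552-123508404, minus strand) holds Snora24, and Snhg3 (chr4:132348014-132353686, minus strand) holds Snora73a and Snora73b. Snhg12 and Snhg3 lie 36989 bases apart on chromosome 4. The genome build and annotation behind the counts are not given in the sources used here, so these positions belong to the annotation and not to the count table.

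The stretches around the RefSeq transcription starts are shown for the genes that rose at least 2-fold at 6 h of CFZ in both lines (Snhg12, Snhg1, Snhg5), for Gas5 as the most abundant host, and for Snhg8 and Snhg3, which behaved differently from the rest. RefSeq (GRCm38.p6) gave start windows for 6 of the 7 genes, with a pair of windows for Gas5. Each stretch runs from 60 bases before the start through 40 bases from it, 5′ to 3′ on the transcript strand. Capitals mark a run of at least 5 pyrimidines that opens with C within 25 bases of the start, a TATA-like match (TATANA) between 40 and 15 bases before the start, or the cyclic AMP response element TGACGTCA. A run is counted from its first C, and any T before that C is left out. A longer run after the Snhg1 start that opens with T is therefore not marked.
Gas5 (chr1:161035106-161035205, plus strand): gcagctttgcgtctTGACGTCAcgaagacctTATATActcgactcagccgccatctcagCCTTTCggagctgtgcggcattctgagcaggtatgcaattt
Snhg1 (chr19:8723427-8723526, plus strand): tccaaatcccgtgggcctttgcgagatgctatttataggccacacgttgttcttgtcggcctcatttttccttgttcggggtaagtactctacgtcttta
Snhg5 (chr9:88522858-88522957, minus strand): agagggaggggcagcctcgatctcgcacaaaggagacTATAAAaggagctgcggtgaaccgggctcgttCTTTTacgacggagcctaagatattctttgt
Snhg12 (chr4:132308618-132308717, plus strand): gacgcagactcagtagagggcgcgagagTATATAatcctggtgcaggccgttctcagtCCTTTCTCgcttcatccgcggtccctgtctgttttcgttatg
Snhg8 (chr3:123508297-123508396, minus strand): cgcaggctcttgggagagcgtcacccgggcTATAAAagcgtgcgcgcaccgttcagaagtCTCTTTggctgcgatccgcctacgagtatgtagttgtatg
Snhg3 (chr4:132353647-132353746, minus strand): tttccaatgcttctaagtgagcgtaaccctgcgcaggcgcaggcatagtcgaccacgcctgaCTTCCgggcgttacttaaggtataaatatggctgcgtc

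A pyrimidine run counted in this way was found in 5 of the 7 windows, against 53% of all 32851 RefSeq mouse windows. The windows without one were that of Snhg1 and the Gas5 window that is not shown, which had no TATA-like match either. TATA-like letters, a search added after the stretches had been read, were found in 4 of the 7 windows, against 3.37% of all windows. TGACGTCA on either strand was found in 1 window, that of Gas5 shown above, against 1.79% of all. The antioxidant response core TGACNNNGC was found in 1 window, that of Snhg8 and outside the stretch shown, against 12.4% of all. The ATF4 composite element TGATGNAA (3.97% of all windows) and the E-box CACGTG (7.15%) were found in 0 of the 7. These are matches of letters, and no binding was measured.

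Total counts ran from 8333148 to 23917081 per library, with a median of 14419832. Nfe2l1 stood at 447.6 ± 9.87 CPM (SD, n = 3) in WT DMSO and 180.1 ± 5.27 CPM in Nrf1-KO DMSO, and was lower in Nrf1-KO than in WT cells in each treatment without overlap, while 2654 to 5635 reads per Nrf1-KO library were still counted on it. The 8 fibroblast markers, Col1a1 and Vim among them, were all expressed, but their summed level fell with CFZ at 24 h. It went from 34000 to 36700 CPM in WT DMSO to 8570 to 8870 CPM, and from 27800 to 34200 CPM to 11500 to 13500 CPM in Nrf1-KO. Vim did not fall in Nrf1-KO cells, at 3398 ± 162 CPM in DMSO and 3451 ± 48.3 CPM at 24 h. Of 8 markers of other cell types Epcam was at 0 in all 18 libraries, and the summed level of the list was at most 15.1 CPM in any library. That sum was higher in Nrf1-KO DMSO (13.3 to 15.1 CPM) than in WT DMSO (6.91 to 7.69 CPM). Inside it Ptprc had 0 counts in every WT library and 6 to 26 in each Nrf1-KO library, and Cdh5 (log2 fold changes 3.67 in WT, 4.22 in Nrf1-KO) and Cd68 (2.26 and 2.55) rose at 24 h in both lines. Cdh1, an epithelial cadherin, made up most of the sum in DMSO, at 6.12 ± 0.231 CPM in WT and 11.6 ± 1.22 CPM in Nrf1-KO cells (SD, n = 3), and fell at 24 h in both lines (-3.54 and -4.87). The part of these differences in the host gene results was not tested. Levels are shares of all counted RNA in a culture, so fewer cells of a kind and less RNA per cell cannot be told apart.

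The 7 hosts together took 0.0427 ± 0.0012% of all counts in WT DMSO, 0.0643 ± 0.00054% after 6 h of CFZ and 0.102 ± 0.0023% after 24 h (SD, n = 3). In Nrf1-KO cells the share was 0.0346 ± 0.00099% without CFZ, 0.0707 ± 0.0013% at 6 h and 0.171 ± 0.012% at 24 h. The Nrf1-KO cells therefore held the lowest share of the 6 groups in DMSO and the highest after 24 h of CFZ. All levels below are CPM after TMM scaling, the reads of a gene relative to the scaled total of its library, and each fold change and adjusted p comes from edgeR's quasi-likelihood test over all 11762 genes, called at an adjusted p under 0.05 with no minimum fold.

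**Figure D1:**
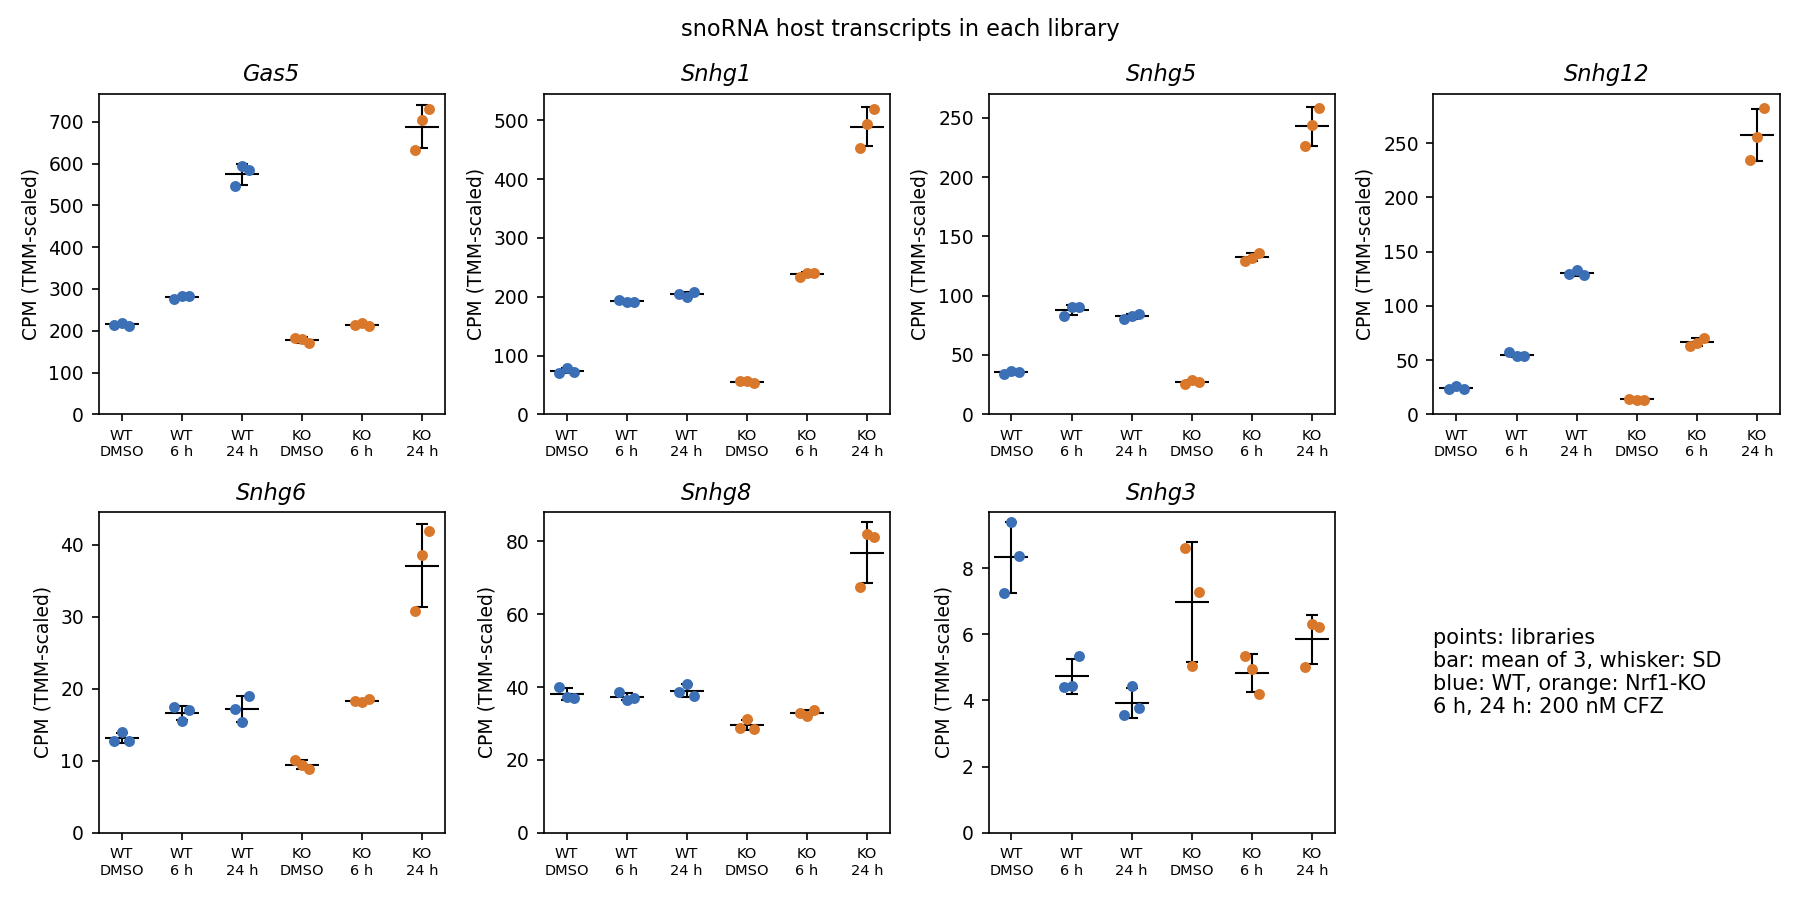
Level of each host gene in every library (vertical axis, TMM-scaled CPM from 0) by group, with WT in blue, Nrf1-KO in orange, a bar at the mean of 3 and whiskers of 1 SD. Gas5, Snhg1, Snhg5, Snhg6, Snhg8 and Snhg12 have their highest values in Nrf1-KO CFZ 24 h, where Snhg12 reached 234.7 to 282.2 CPM. Snhg3 has its highest mean in WT DMSO.

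Gas5 is a C/D host first described as a transcript that accumulates in growth-arrested cells. In WT cells it stood at 214.3, 219.5 and 211.9 CPM in DMSO, 277.0, 282.7 and 282.2 CPM at 6 h and 545.5, 593.5 and 584.5 CPM at 24 h. The 3 groups did not overlap, and most of the rise came after 6 h. Gas5 was 1.3-fold higher at 6 h (edgeR adjusted p = 2.3e-09) and 2.67-fold higher at 24 h (adjusted p = 3.1e-24). In Nrf1-KO cells it stood at 182.7, 180.1 and 170.0 CPM in DMSO, 212.6, 218.8 and 211.6 CPM at 6 h, and 632.0, 703.9 and 730.3 CPM at 24 h. These groups did not overlap either, and the rise was 1.21-fold at 6 h (adjusted p = 2.5e-06) and 3.88-fold at 24 h (adjusted p = 6.6e-28). Its untreated level was lower in the Nrf1-KO line, so that Nrf1-KO cells at 6 h stood about where untreated WT cells did.

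Snhg1 carries several C/D snoRNAs, Snord22 among them. In WT cells it went from 70.3, 79.1 and 72.7 CPM in DMSO to 194.9, 190.8 and 190.2 CPM at 6 h and 204.5, 199.5 and 207.9 CPM at 24 h. Most of the rise was present at 6 h (2.6-fold, edgeR adjusted p = 2.8e-22), and the 24 h and 6 h groups differed by 0.09 on the log2 scale without overlap (adjusted p = 0.068). That difference passed the threshold with scaling to the bare library size (0.11, adjusted p = 0.015) and with the compared groups only (0.08, adjusted p = 0.018), with 0.015 to 0.47 over all alternatives. In Nrf1-KO cells it went from 57.2, 56.1 and 53.0 CPM to 233.0, 240.3 and 240.6 CPM at 6 h and 453.6, 493.7 and 519.8 CPM at 24 h. Here the level rose again between 6 h and 24 h, by 2.06-fold (adjusted p = 1.1e-20), to 8.86-fold over DMSO (adjusted p = 1.5e-32).

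Snhg5, the host of the Snord50 pair, stood at a lower level with a similar time course. Its WT libraries stood at 33.6, 36.3 and 36.0 CPM in DMSO, 83.0, 90.3 and 90.1 CPM at 6 h and 80.4, 82.4 and 84.7 CPM at 24 h. The rise was 2.49-fold at 6 h (edgeR adjusted p = 4.2e-20) and 2.35-fold at 24 h (adjusted p = 7.7e-20), and the difference between the times was -0.09 on the log2 scale (adjusted p = 0.11). That last difference passed the threshold in 5 of 14 alternatives, with adjusted p-values of 0.0068 to 0.28 over all of them. It passed without replicate 1 of WT CFZ 6 h (-0.17, adjusted p = 0.0068) and with a replicate block (-0.09, 0.045). The others were upper-quartile scaling (-0.11, 0.042), no expression filter (-0.11, 0.027) and the compared groups only (-0.09, 0.031). In Nrf1-KO cells Snhg5 went from 25.9, 28.7 and 26.8 CPM to 129.6, 131.5 and 136.1 CPM at 6 h and 225.9, 244.1 and 258.1 CPM at 24 h. It was 4.88-fold above DMSO at 6 h (adjusted p = 1.9e-26) and 8.96-fold at 24 h (adjusted p = 9.5e-32).

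Snhg6, with the single snoRNA Snord87, moved little in WT cells. Its WT libraries held 12.7, 14.0 and 12.8 CPM in DMSO, 17.4, 15.6 and 17.02 CPM at 6 h and 17.2, 15.4 and 19.0 CPM at 24 h. The groups at 6 h and 24 h overlapped each other but not DMSO, and the rise was 1.27-fold (edgeR adjusted p = 0.0042) and 1.3-fold (adjusted p = 0.00098). The 6 h call was lost when counts were scaled by library size alone (log2 fold change 0.21, adjusted p = 0.062, with 0.00053 to 0.062 over all alternatives). In Nrf1-KO cells it held 10.0, 9.5 and 8.9 CPM in DMSO, 18.3, 18.1 and 18.6 CPM at 6 h and 30.8, 38.6 and 42.0 CPM at 24 h. It was 1.95-fold higher at 6 h (adjusted p = 3.8e-09) and 3.97-fold higher at 24 h (adjusted p = 1.7e-19).

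Snhg12, with 3 H/ACA snoRNAs and 1 C/D snoRNA, had the largest CFZ response of the 7 at 24 h in both lines. In WT cells it went from 23.0, 25.9 and 23.1 CPM in DMSO to 57.2, 53.6 and 53.6 CPM at 6 h and 129.1, 132.8 and 128.5 CPM at 24 h. It was 2.29-fold higher at 6 h (edgeR adjusted p = 3.8e-16) and 5.43-fold higher at 24 h (adjusted p = 2.7e-26), and the groups did not overlap. In Nrf1-KO cells it started lower, at 14.4, 13.3 and 13.6 CPM, and reached 62.8, 65.7 and 70.1 CPM at 6 h and 234.7, 255.1 and 282.2 CPM at 24 h. That is 4.79-fold (adjusted p = 2.4e-22) and 18.7-fold (adjusted p = 1.7e-32) above DMSO, and at 24 h its log2 fold change was above that of 99.4% of the genes tested.

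Snhg8, with the H/ACA snoRNA Snora24, had no detectable response in WT cells. Its WT libraries held 39.96, 37.2 and 37.1 CPM in DMSO, 38.5, 36.6 and 37.1 CPM at 6 h and 38.6, 41.0 and 37.4 CPM at 24 h. All 3 groups overlapped, with log2 fold changes of -0.03 (95% interval -0.16 to 0.10) at 6 h and 0.03 (-0.09 to 0.16) at 24 h. The 6 h value was -0.16 and passed the threshold with scaling to the bare library size (edgeR adjusted p = 0.024, with 0.024 to 0.94 over all alternatives). In Nrf1-KO cells Snhg8 held 28.8, 31.2 and 28.6 CPM in DMSO, 32.8, 31.97 and 33.7 CPM at 6 h and 67.4, 82.2 and 81.2 CPM at 24 h. The 6 h group stood above DMSO without overlap, but the difference of 0.15 on the log2 scale missed the threshold (adjusted p = 0.057). It passed in 3 of 14 alternatives, with adjusted p-values of 0.024 to 0.62 over all of them. These 3 were without replicate 2 of Nrf1-KO DMSO (0.19, adjusted p = 0.033), the compared groups only (0.15, 0.024) and a replicate block (0.15, 0.045). At 24 h Snhg8 was 2.62-fold above DMSO (adjusted p = 2.4e-20).

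Snhg3, the host of the H/ACA snoRNAs Snora73a and Snora73b, was called lower with CFZ in WT cells at both times and had the fewest reads of the 7, 35 to 189 per library. In WT cells it went from 7.3, 9.4 and 8.4 CPM in DMSO to 4.4, 4.4 and 5.3 CPM at 6 h and 3.6, 4.4 and 3.8 CPM at 24 h. Both CFZ groups lay below DMSO, and Snhg3 was 1.75-fold lower at 6 h (edgeR adjusted p = 2.2e-05) and 2.08-fold lower at 24 h (adjusted p = 2.9e-07). In Nrf1-KO cells it held 8.6, 5.0 and 7.3 CPM in DMSO, 5.4, 4.9 and 4.2 CPM at 6 h and 5.0, 6.3 and 6.2 CPM at 24 h, and the DMSO group overlapped both CFZ groups. It was 1.42-fold lower at 6 h (adjusted p = 0.0057). At 24 h its log2 fold change was -0.25 (adjusted p = 0.097), and it passed the threshold without replicate 2 of Nrf1-KO DMSO (-0.41, adjusted p = 0.005, with 0.0047 to 0.44 over all alternatives). In the annotation 13.7% of the exonic bases of Snhg3 are shared with Rcc1 on the same strand, so reads there could be given to either gene. A further gene, Gm17300, overlaps 71.5% of them on the opposite strand, and the sources used here do not say whether the counting used strand.

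Over the 7 hosts, 5 were called higher and 1 lower in WT cells at 6 h of CFZ. Of all genes tested 35.6% were called higher and 36.2% lower in that comparison, so that a call without a size is common here. A rise of at least 2-fold was found for 3 hosts (Snhg1, Snhg5 and Snhg12) and for 3.98% of all genes. At 24 h in WT cells 5 were higher and 1 lower, against 43.2% and 40.5% of all genes, and 4 were higher by at least 2-fold, against 10.5%. In Nrf1-KO cells at 6 h 5 were higher and 1 lower, against 34.5% and 35% of all genes, and 3 were higher by at least 2-fold, against 3.3%. In Nrf1-KO cells at 24 h 6 were higher and 0 lower, against 44.4% and 41.1% of all genes, and the 6 all rose at least 2-fold, against 11.5%. The median log2 fold change of the 7 was 0.38, 1.23, 0.97 and 1.99 in these 4 comparisons, in that order, beside medians of -0.02, 0.02, -0.01 and 0.03 over all genes tested. Each comparison at 24 h uses the same DMSO libraries as the comparison at 6 h in that line.

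**Figure D2:**
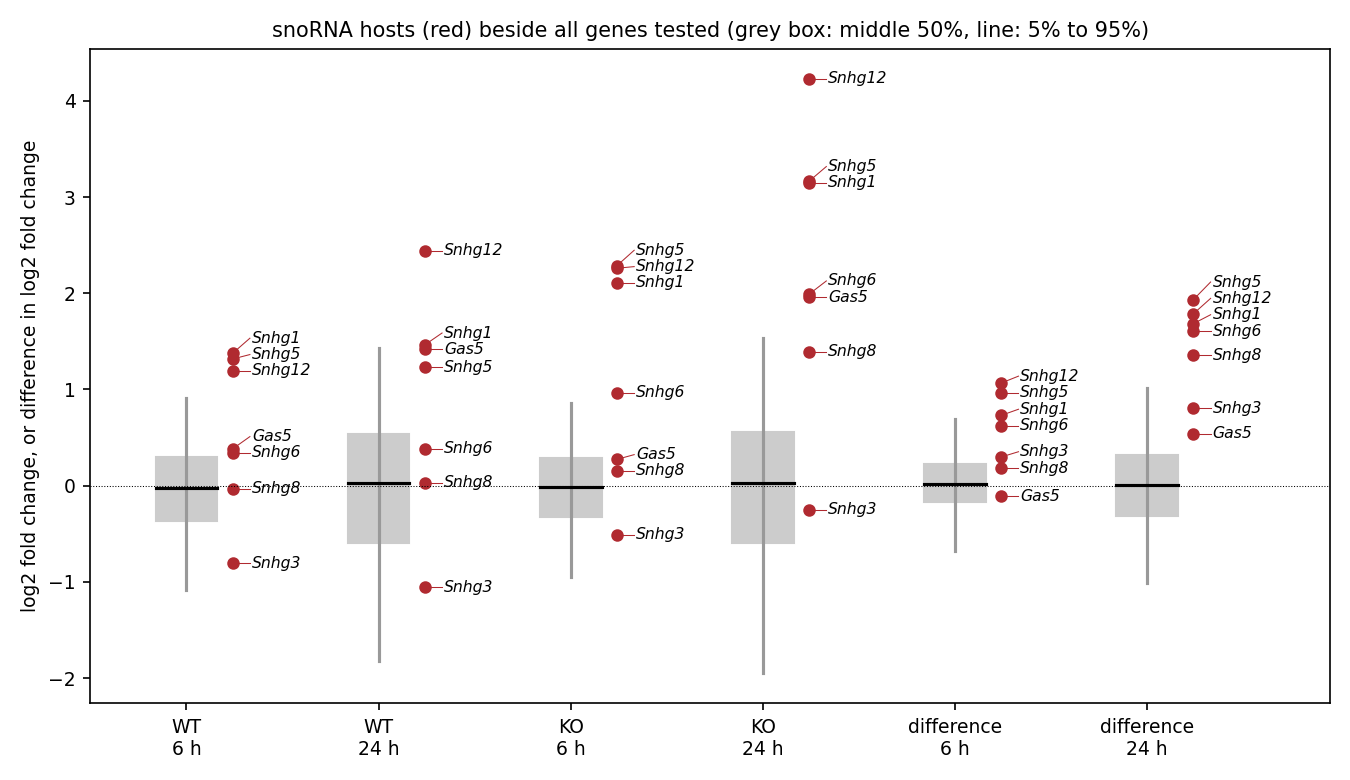
Log2 fold change with CFZ in each line and time, and the difference between the lines (vertical axis, log2), for each host (red points) beside all genes tested (grey box for the middle 50%, grey line from 5% to 95%, black bar at the median). In Nrf1-KO cells at 24 h 5 hosts lie above the grey line, Snhg12 highest at 4.23, and Snhg3 lies near the middle at -0.25.

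From 6 h to 24 h of CFZ 2 hosts rose further in WT cells, Gas5 by 2.05-fold and Snhg12 by 2.38-fold, and 0 fell, against 36.9% of all genes higher and 35.4% lower. Snhg6 (0.04, adjusted p = 0.72), Snhg8 (0.06, adjusted p = 0.41) and Snhg3 (-0.25, adjusted p = 0.24, all log2) missed the threshold, as did Snhg1 and Snhg5. In Nrf1-KO cells 6 rose further and 0 fell, against 38.7% and 38.3% of all genes. The 6 rises ran from 1.84-fold for Snhg5 to 3.91-fold for Snhg12, and 5 of them were at least 2-fold, against 6.56% of all genes. Snhg3 stood at 0.26 on the log2 scale (edgeR adjusted p = 0.17).

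In DMSO the hosts were lower in Nrf1-KO than in WT cells for 6 of 7 and higher for 0, against 29.1% of all genes lower and 25.7% higher. The 6 did not overlap between the lines, which was the case, in either direction, for 59.8% of all genes. The difference was largest for Snhg12, which was 1.74-fold lower (edgeR adjusted p = 1.4e-09), and ran from 1.21-fold for Gas5 to 1.4-fold for Snhg6 among the other 5. For Snhg3 it was -0.24 on the log2 scale (adjusted p = 0.11), and it passed the threshold without replicate 1 of Nrf1-KO DMSO (-0.37, adjusted p = 0.019, with 0.019 to 0.57 over all alternatives). At 6 h of CFZ 3 hosts were higher in Nrf1-KO cells (Snhg1, Snhg5 and Snhg12, by 1.24-fold, 1.5-fold and 1.2-fold) and 2 were lower (Gas5 by 1.31-fold, Snhg8 by 1.14-fold), against 30.5% and 30.8% of all genes. The call for Snhg8 (adjusted p = 0.022) was lost without replicate 1 of WT CFZ 6 h (adjusted p = 0.058) and without replicate 2 of Nrf1-KO CFZ 6 h (adjusted p = 0.078), with 0.0047 to 0.13 over all alternatives. Snhg6 (0.14, adjusted p = 0.26) and Snhg3 (0.06, adjusted p = 0.80, both log2) missed the threshold at 6 h. At 24 h 7 were higher in Nrf1-KO cells and 0 lower, against 35.6% and 36.4% of all genes. None of the 7 overlapped between the lines, and 35.9% of all genes were likewise higher without overlap. The differences ran from 1.2-fold for Gas5 to 2.94-fold for Snhg5, and 3 of the 7 (Snhg1, Snhg5 and Snhg6) were at least 2-fold, against 6.71% of all genes.

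The response itself was compared between the lines by the interaction of line and CFZ. At 6 h it was larger in Nrf1-KO than in WT cells for 4 hosts and smaller for 0, against 19.8% of all genes with a positive and 18.4% with a negative call. In log2 units the difference was 1.07 ± 0.104 (SE) for Snhg12 (edgeR adjusted p = 8e-10), 0.97 ± 0.0771 for Snhg5 (8e-12), 0.73 ± 0.0665 for Snhg1 (1.7e-10) and 0.62 ± 0.151 for Snhg6 (0.0013). Gas5 (-0.11, adjusted p = 0.17), Snhg8 (0.18, adjusted p = 0.14) and Snhg3 (0.30, adjusted p = 0.32) missed the threshold. At 24 h the interaction was positive and called for all 7 hosts, against 29.7% of all genes. It was at least 1 log2 unit for Snhg5 (1.93 ± 0.0753, adjusted p = 6.7e-20), Snhg12 (1.79 ± 0.0955, 1.7e-16), Snhg1 (1.68 ± 0.0651, 5.7e-20), Snhg6 (1.61 ± 0.138, 1.4e-11) and Snhg8 (1.36 ± 0.0869, 1.4e-14), against 4.07% of all genes with a positive call of that size. It was smaller for Snhg3 (0.80 ± 0.213, 0.0017) and Gas5 (0.54 ± 0.0592, 2.8e-09). For Snhg3 the positive value goes with a fall in WT cells and no call in Nrf1-KO cells, not with a rise. Replicate 1 of Nrf1-KO CFZ 24 h was the lowest of its group for all 7 hosts. Without it the 7 calls held, with values from 0.60 for Gas5 to 1.98 for Snhg5.

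**Figure D3:**
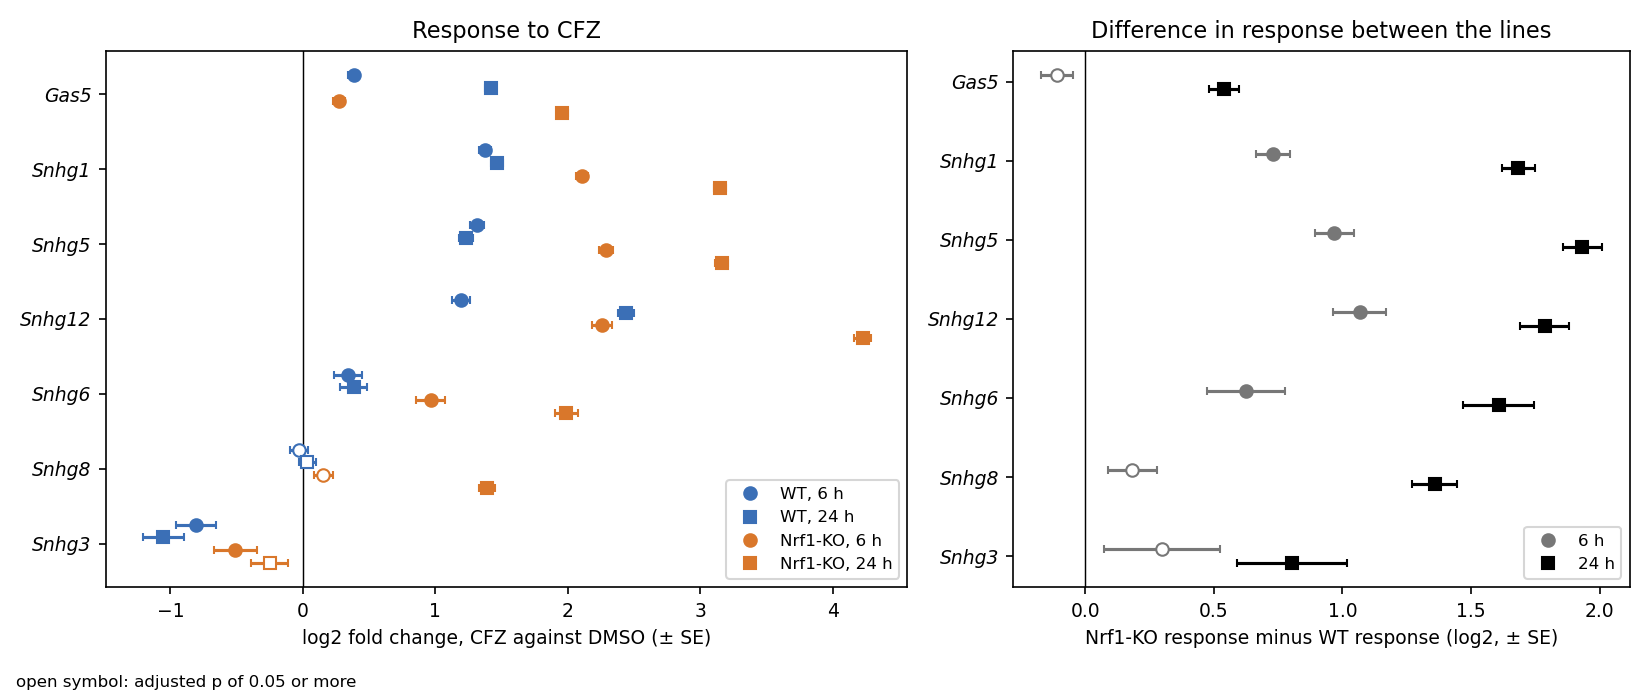
Left, log2 fold change of each host with CFZ against DMSO, with WT in blue, Nrf1-KO in orange, circles for 6 h and squares for 24 h. Right, the Nrf1-KO response minus the WT response (log2), with bars of 1 SE and open symbols for an adjusted p of 0.05 or more. All 7 squares on the right lie above 0, from 0.54 for Gas5 to 1.93 for Snhg5.

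Levels between genes were set side by side per kilobase of the representative transcript, and part of the order changed with the length used. Gas5 was the most abundant host in 5 of the 6 groups, with 324 ± 5.8 CPM per kb in WT DMSO and 1040 ± 77 in Nrf1-KO CFZ 24 h (SD, n = 3). In Nrf1-KO CFZ 6 h Snhg1 stood above it, at 393 ± 7.2 against 322 ± 5.8 CPM per kb. Snhg3 was the lowest in every group, between 8.98 ± 1.0 and 19.1 ± 2.4 CPM per kb. Snhg8 was the third in both DMSO groups, at 72.2 ± 3.1 CPM per kb in WT and 55.9 ± 2.7 in Nrf1-KO, and stood below Snhg12 and Snhg5 in all 4 CFZ groups. Neighbours in the order that lay within their spread were Snhg5 (35.2 ± 1.5) and Snhg6 (32.9 ± 1.8 CPM per kb) in WT DMSO, Snhg6 (23.7 ± 1.4) and Snhg12 (22.7 ± 0.99) in Nrf1-KO DMSO, and Snhg12 (90.4 ± 3.4) and Snhg5 (87.4 ± 4.2) in WT CFZ 6 h. The order was also taken per kilobase of all annotated exonic bases, a length added after the data had been seen. For Snhg1, Snhg8 and Snhg12 that length is the whole span of the gene, introns included (2969, 853 and 2402 bases). By that length Gas5 was again the highest in 5 of the 6 groups. Snhg8 was then second in both DMSO groups (44.7 ± 1.9 in WT and 34.6 ± 1.7 in Nrf1-KO) and stood above Snhg12 at 6 h of CFZ, at 43.8 ± 1.2 against 22.8 ± 0.86 in WT and 38.5 ± 1.0 against 27.6 ± 1.5 CPM per kb in Nrf1-KO cells. Snhg3 was then the lowest in 5 groups, and in Nrf1-KO DMSO Snhg12 (5.73 ± 0.25) and Snhg3 (7.07 ± 1.8) lay within their spread.

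Among themselves the hosts fell into few shapes. Over the 18 libraries the log2 levels of Snhg1 and Snhg5 had a Pearson correlation of 0.991, and of 0.99 within the 9 WT and 0.998 within the 9 Nrf1-KO libraries. Gas5 was nearest to Snhg12 (0.91). Snhg8 correlated with Gas5 at 0.995 in Nrf1-KO libraries and at 0.359 in WT libraries, where Snhg8 hardly varied. Snhg3 correlated negatively with the other 6, from -0.519 with Snhg12 to -0.00785 with Snhg8. These values describe 18 libraries that share line, treatment and depth.

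The genes whose profile over the 18 libraries was most like that of each host were looked up among all genes tested, 2 per host. Both Snhg1 (r = 0.995) and Snhg5 (r = 0.992) had Ddit3 (CHOP, a transcription factor induced in the unfolded protein response) as their nearest gene. The next nearest were Tmem11 for Snhg1 (0.991) and 4921524J17Rik for Snhg5 (0.990). Ddit3 rose by 1.47 (log2) in WT and 3.28 in Nrf1-KO cells at 24 h, beside 1.46 and 3.15 for Snhg1. Ddit3 is also among the mRNAs known as targets of nonsense-mediated decay that are counted below. For Snhg12 the nearest were Cct2, a subunit of the cytosolic chaperonin (0.991), and Ern1, the IRE1 sensor of the endoplasmic reticulum (0.9895). For Gas5 they were Eif3f, a translation initiation factor subunit with a TOP start (0.991), and Gltscr2 (0.991). For Snhg8 they were Pabpc4 (0.960), a poly(A)-binding protein, and Npm1 (0.955), a nucleolar protein. For Snhg6 they were Trp53inp1 (0.964) and Rab3ip (0.962), and for Snhg3 Plau (0.900) and Pcdh18 (0.884). These genes were the best of all genes tested, so a high r was to be found by the search itself.

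The snoRNAs inside the hosts were hardly counted. Of the 27 loci 9 had a row, among them Mir5117 in Gas5, which has a microRNA symbol and was not looked at. Of the 8 rows with a Snord or Snora symbol 3 passed the expression filter (Snord22, Snord47 and Snora61). The libraries were made for polyadenylated mRNA, and mature snoRNAs are short and lack a poly(A) tail, so these rows need not follow the mature snoRNAs. Snord22, inside Snhg1, had 53, 37 and 34 counts in WT DMSO and 19, 30 and 16 in WT CFZ 24 h, while Snhg1 rose. The row was called lower there (log2 fold change -0.65, edgeR adjusted p = 0.013), as was Snora61 inside Snhg12 (-1.15, adjusted p = 0.0054), while Snord47 inside Gas5 stood at -0.89 (adjusted p = 0.05). In Nrf1-KO cells at 24 h the rows of Snord22, Snord47 and Snora61 stood at 0.40, 0.39 and -0.22, with adjusted p-values of 0.062, 0.47 and 0.62.

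Genes beside the hosts did not all move with them. Slc3a2, which encodes a chain of an amino acid transporter and starts 106 bases from Snhg1 on the opposite strand, was higher at 24 h by 0.24 (log2) in WT and 0.90 in Nrf1-KO cells, less than Snhg1 (1.46 and 3.15). Trnau1ap, 739 bases from Snhg12 on the opposite strand, fell by 0.44 on the log2 scale in WT and 0.48 in Nrf1-KO cells, while Snhg12 rose. Prss12, 955 bases from Snhg8 on the opposite strand, rose by 1.63 in WT cells, where Snhg8 had no detectable change, and by 1.12 in Nrf1-KO cells. Rcc1, which shares exonic bases with Snhg3, stood at 0.10 at 24 h (edgeR adjusted p = 0.068) in WT and rose by 0.17 in Nrf1-KO cells. At 6 h Rcc1 was higher, by 0.51 in WT and 0.65 in Nrf1-KO cells, while Snhg3 stood at -0.81 and -0.51. Slc3a2 was also higher at 6 h than at 24 h, by 0.71 over DMSO in WT and 1.10 in Nrf1-KO cells.

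**Figure D4:**
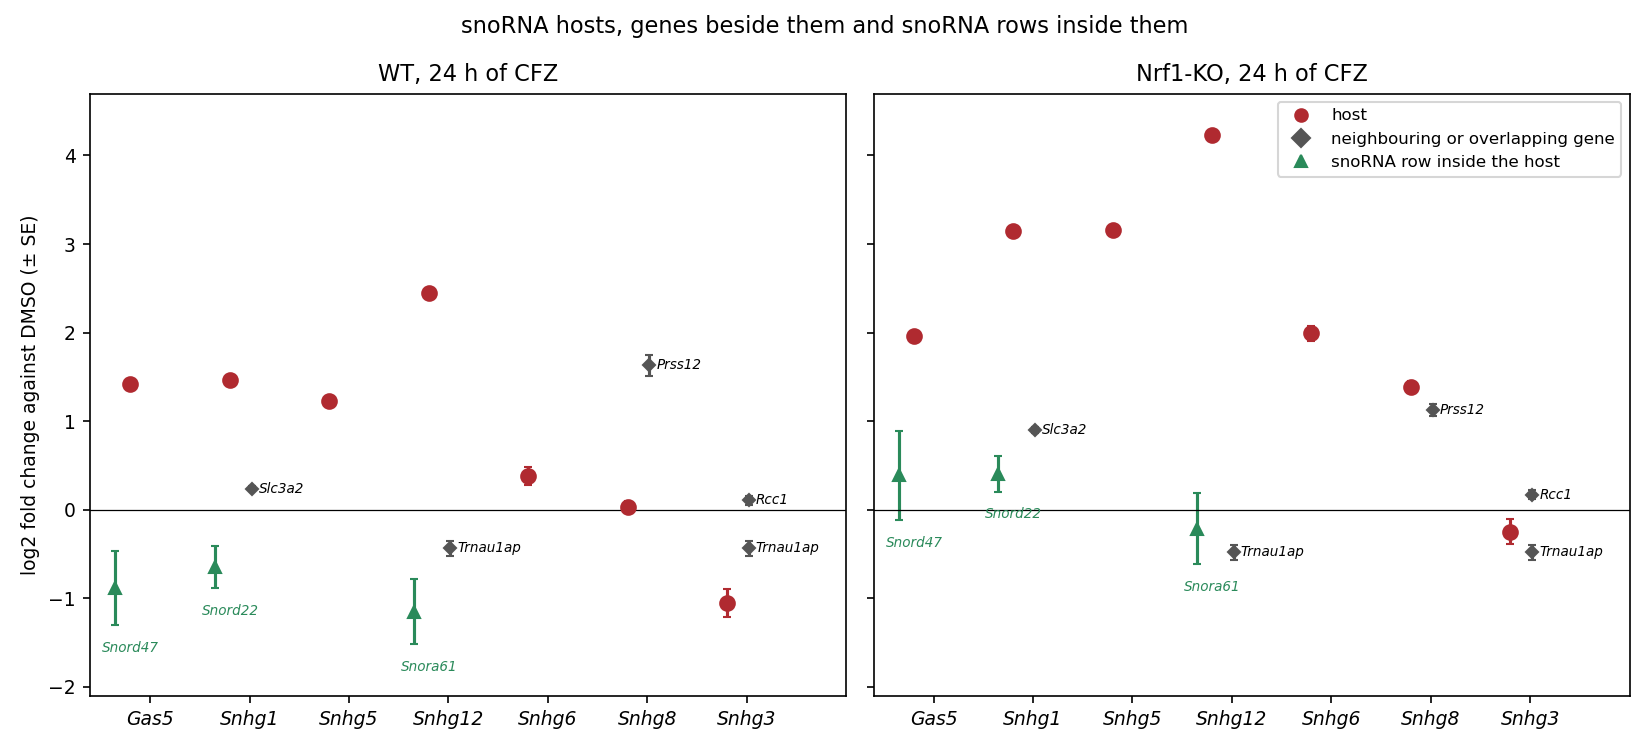
Log2 fold change at 24 h of CFZ against DMSO (vertical axis, bars of 1 SE) for each host (red), the genes beside or overlapping it that the text describes (grey: Slc3a2, Trnau1ap, Prss12 and Rcc1) and the tested snoRNA rows inside it (green), in WT (left) and Nrf1-KO cells (right). Trnau1ap is drawn at both Snhg12 and Snhg3. Snhg12 stands at 2.44 and 4.23 while Trnau1ap beside it stands at -0.44 and -0.48.

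Other snoRNA hosts were counted from lists. At 24 h 43.2% of all genes were called higher and 40.5% lower in WT cells, and 44.4% and 41.1% in Nrf1-KO cells. Of 7 further noncoding hosts with a row 5 passed the filter, and at 24 h 1 was higher and 3 lower in WT cells, with a median log2 fold change of -0.46. Snhg7 rose in both lines (1.29 in WT, 1.51 in Nrf1-KO) and Snhg4 fell in both (-1.13 and -0.38). Rian, a long imprinted host, fell by 1.25 in WT cells, and its row held 0 to 3 counts in each Nrf1-KO library against 23 to 119 in each WT library. In Nrf1-KO cells at 24 h 1 of the 5 was higher and 1 lower. Of 18 protein-coding hosts 12 were higher and 1 lower in WT cells at 24 h (median 0.22), and 16 were higher and 1 lower in Nrf1-KO cells (median 0.61). The largest rises were those of the chaperone Hspa8 (3.09 and 3.59), and the one that fell in both lines was Dkc1, the H/ACA pseudouridine synthase (-0.27 and -0.69). The interaction at 24 h was positive for 15 of the 18 and negative for 1, against 29.7% and 30% of all genes. For the 5 further noncoding hosts that passed the filter it was positive for 2 and negative for 0. Its median was 0.36 for the 18 and 0.60 for those 5, beside 1.61 for the 7 hosts described in this report.

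Genes of pathways related to the hosts were counted in the same way, beside the same shares of all genes at 24 h. Of 15 TOP mRNAs other than ribosomal protein mRNAs, 13 rose and 2 fell (Eef1d and Eif4b) in WT cells at 24 h, with a median log2 fold change of 0.48. In Nrf1-KO cells 14 rose and 1 fell (Eif4b), with a median of 0.94, led by Hnrnpa1 (1.21) and Npm1 (1.15). The interaction at 24 h was positive for 12 of the 15 and negative for 0, with a median of 0.32, against 29.7% and 30% of all genes. Of 20 nonsense-mediated decay factors 15 rose and 1 fell (Pnrc2) in WT cells at 24 h, with a median of 0.45, led by the kinase Smg1 (1.09) and its partner Smg8 (0.97). In Nrf1-KO cells 15 rose and 5 fell, with a median of 0.32, led by Smg9 (1.19) and Smg1 (1.01), and the largest fall was that of the cap-binding subunit Ncbp2 (-0.73). At 24 h the interaction was positive for 5 and negative for 7 of the 20, against 29.7% and 30% of all genes. Of 9 mRNAs known as targets of this decay 7 rose and 1 fell in WT cells at 24 h, and 8 rose and 1 fell in Nrf1-KO cells. The largest rises were those of the stress transcription factor Atf3 (4.09 and 7.16), and the one that fell was Tbl2 (-0.32 in both lines). The median of the 9 was 0.88 in WT and 0.83 in Nrf1-KO cells. Their interaction at 24 h was positive for 4 and negative for 2, with a median of 0.18, against 29.7% and 30% of all genes. Of 8 core proteins of snoRNA particles 3 rose and 3 fell in WT cells and 3 rose and 4 fell in Nrf1-KO cells, with Nhp2 up in both (0.99 and 0.91) and Nop10 down by 0.19 in WT and by 1.40 in Nrf1-KO cells. The lists share genes, so their counts are not independent. Nop56, Nop58 and Dkc1 stand among the protein-coding hosts and the core proteins, and Eef1b2 and Eef2 among those hosts and the TOP mRNAs. These lists were chosen with results of these data known, and nothing is called particular to a list from its count.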

How the data were processed

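RNA from 18 cultures was made into stranded mRNA libraries, sequenced in pairs and run by the authors through RNA Express (STAR and DESeq2). The authors deposited raw read counts on 23420 gene symbols, without normalization. Build, annotation, versions and use of strand are not given in the sources used here.

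Conditions and replicate numbers came from the labels. edgeR 4.0.16 in R 4.3.3 was run on the counts after filterByExpr (at least 10 counts, and 15 in total) and TMM scaling, with all 6 groups in 1 quasi-likelihood fit and Benjamini-Hochberg adjustment over 11762 genes (threshold 0.05), in 11 comparisons. With a biological coefficient of variation of 3.13%, small differences pass. No 2 replicates differed by less than sampling noise (chi-square per degree of freedom 1.438 to 8.469). The script was tested on simulated counts. Nearest profiles used log2 CPM with a prior count of 2. Intervals are at the 95% level and come from the fold change and its standard error.

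Positions came from GENCODE M21 by symbol. The representative transcript was a RefSeq-matched one without a retained intron, or else the longest such one. The naming rule took all 7 genes, the 2 nearest profiles and the flanking and overlapping genes of each, the 2 list genes with the largest change, and Nfe2l1. Only some of the flanking and overlapping genes are described, and these, like other list genes, were named after their values were seen. A gene beside 1 host is not reported here. The genes and lists were chosen with earlier results of these data known. Alternatives were DESeq2 1.42.0, other scalings and filters, the compared groups only, a replicate block, each library left out, a minimum fold of 2 and, for levels per kilobase, all annotated exonic bases as the length.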

Additional observations from a re-analysis of the deposited data

Results flagged for a closer look

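The CFZ response differed between the lines by the interaction test in edgeR, at an adjusted p under 0.05, for 4 hosts at 6 h and for all 7 at 24 h, in each case upward, as it did upward for 19.8% and 29.7% of all genes. At 6 h the Nrf1-KO response minus the WT response (log2) was 0.73 for Snhg1, 0.97 for Snhg5, 0.62 for Snhg6 and 1.07 for Snhg12. At 24 h it was 0.54 for Gas5, 1.68 for Snhg1, 0.80 for Snhg3, 1.93 for Snhg5, 1.61 for Snhg6, 1.36 for Snhg8 and 1.79 for Snhg12. Of the 7 hosts 6 were called lower in Nrf1-KO than in WT DMSO, Snhg3 being the exception, against 29.1% of all genes. All 7 were called higher in Nrf1-KO than in WT cells at 24 h of CFZ, against 35.6% of all genes. For Snhg3 the difference came with a fall in WT cells. The summed level of markers of other cell types was also higher in Nrf1-KO DMSO (13.3 to 15.1 CPM) than in WT DMSO (6.91 to 7.69 CPM), and its part in these values was not tested.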

How the results depend on the processing

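Of 1162 alternative values for single hosts 1131 kept their direction and their side of the threshold, 5 lost a call, 16 gained one and 10 turned direction. Those 10 were values without a call. For Snhg8 in WT cells the 6 h value ran from -0.050 to 0.016 with 1 library left out, being above 0 without replicate 1 of WT DMSO, and the 24 h value was -0.10 with upper-quartile scaling, -0.072 by library size alone, -0.023 with no expression filter, -0.00025 with the compared groups only, and from -0.011 to 0.069 with 1 library left out, below 0 without replicate 2 of WT CFZ 24 h. For Snhg6 in WT cells at 24 h against 6 h leaving out 1 library gave -0.050 to 0.13, and -0.043 without replicate 2 of WT CFZ 6 h. For Snhg3 between the lines at 6 h it gave -0.025 to 0.14, and -0.00065 without replicate 1 of WT CFZ 6 h. The cause was not tested. With a minimum fold of 2 the number of hosts called was 3 in WT cells at 6 h, 3 in Nrf1-KO cells at 6 h, 0 between the lines in DMSO, 0 at 6 h and 3 at 24 h, and 1 for the interaction at 6 h. Among all 11762 genes 468 were higher and 665 lower by that fold in WT cells at 6 h. In Nrf1-KO cells at 6 h it was 388 and 501 genes. Between the lines it was 376 and 208 in DMSO, 507 and 353 at 6 h, and 789 and 651 at 24 h. For the interaction at 6 h it was 142 and 185. With the compared groups only, 4 hosts were called in WT cells at 24 h against 6 h, beside 8518 of 11130 genes. Leaving out 1 library gave 6 to 7 hosts in Nrf1-KO cells against DMSO at either time and between the lines in DMSO, 4 to 5 between the lines at 6 h, 2 to 3 in WT cells at 24 h against 6 h, and the reported count in the other comparisons. Library size alone moved the median of all genes by -0.13 in WT and -0.11 in Nrf1-KO cells at 6 h and by -0.10 and -0.18 at 24 h, and upper-quartile scaling by -0.11 in WT cells at 6 h and by -0.14 and -0.11 at 24 h. Snhg3 was called lower in Nrf1-KO cells at 24 h with upper-quartile scaling (-0.36), by library size alone (-0.43) and with no expression filter (-0.30). Snhg8 lost its call between the lines at 6 h with upper-quartile scaling (-0.14) and by library size alone (-0.13).

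Libraries with the same replicate number did not deviate together over all genes (mean correlation 0.0136 over 45 pairs, from -0.0494 to 0.0972). A pairing that touches few genes could be missed by this mean, so it cannot decide whether the numbers pair the samples. When the replicate number was added as a block, the count of hosts called stayed within 1.5 times the reported one in 11 of 11 comparisons (6 in WT CFZ 6 h against DMSO), and 75 of 77 single values kept their side, Snhg8 in Nrf1-KO cells at 6 h (0.15, edgeR adjusted p = 0.045) and Snhg5 in WT cells at 24 h against 6 h (-0.09, adjusted p = 0.045) gaining a call. Other scalings moved the group levels by -4.89% to 8.11%, and 32 of 84 such values moved by more than 1 SD. Depth limits Snhg3 most, with 35 to 189 counts per library.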
